A study of Mus musculus with 4 samples.

Results

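Cytokines, chemokines and genes of the NF-kB pathway were examined in the prefrontal cortex after repeated social threat in mice. The list held 37 genes, chosen by name with earlier results of these data known. A gene was measured where at least 1 probe set of the array carried its symbol and no other, and it was read from the probe set with the highest mean over all arrays. This gave 36 of the 37 members, out of 18193 genes measured in all, and Nfkb1 was not analysed here. The samples were 2 pools of the environment labelled HighThreat ("threat" below) and 2 pools of the environment labelled LowThreat ("control"). Each pool held RNA of 5 mice and was run on 1 Affymetrix MOE430 2.0 array. Strain, age and sex of the mice are not given in the labels. Values are the deposited log2 expression values, and differences are threat minus control on that scale. A pool averages its mice, so differences between animals cannot be seen here, and nothing in the labels says whether pools came from separate cohorts. The p-values weigh a difference against the spread between pools. In limma, the software used, that spread is moderated with the spread over all probe sets. Each standard error (SE) given is the moderated one.

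NF-kB is a family of transcription factors made of the subunits RelA, RelB, c-Rel, p50 and p52, which pair with each other. In resting cells IkappaB proteins hold the pairs in the cytoplasm. Interleukin-1, tumour necrosis factor and microbial products activate the IkappaB kinase, which marks IkappaB for destruction, and the freed pairs enter the nucleus and switch on cytokines, chemokines, adhesion molecules and also their own inhibitors. In the brain, microglia, cells of the vessel wall and astrocytes are the main producers and responders, and prolonged stress in rodents is widely studied for its effects on this system.

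The kappaB decamer is the consensus to which NF-kB binds. It was searched on both strands in RefSeq promoter windows of mouse build GRCm38.p6, each reaching from 250 bases before to 50 bases after an annotated start. Of the 36 measured members 28 had a window, and 10 of these held the decamer (Il6, Cxcl1, Cxcl2, Cxcl10, Il1r1, Nfkb2, Rel, Nfkbia, Bcl3 and Tnfaip3). Of all 27025 genes with a window, 9.55% held it. The list contains known NF-kB targets by its making, and a match is a description of letters, not of binding. The 130 bases before the start are shown for the 4 members that had the decamer there and whose threat and control pools did not overlap, 5′ to 3′ on the gene's strand, with the decamers in capitals. In the probe sets they were read from, Cxcl1, Nfkb2 and Nfkbia lay lower in both threat pools and Tnfaip3 higher. Each of the 4 also had at least 1 probe set whose pools overlapped or lay the other way, as described below.
Cxcl1, chr5:90891115-90891244, plus strand: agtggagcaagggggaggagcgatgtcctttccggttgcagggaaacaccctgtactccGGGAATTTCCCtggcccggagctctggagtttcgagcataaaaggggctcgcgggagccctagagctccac
Nfkb2, chr19:46304607-46304736, plus strand: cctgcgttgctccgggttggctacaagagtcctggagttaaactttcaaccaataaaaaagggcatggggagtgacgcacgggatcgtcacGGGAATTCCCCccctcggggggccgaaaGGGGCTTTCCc
Nfkbia, chr12:55492648-55492777, minus strand: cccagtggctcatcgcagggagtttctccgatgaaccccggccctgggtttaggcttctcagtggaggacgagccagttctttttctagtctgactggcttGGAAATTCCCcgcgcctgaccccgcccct
Tnfaip3, chr10:19015411-19015540, minus strand: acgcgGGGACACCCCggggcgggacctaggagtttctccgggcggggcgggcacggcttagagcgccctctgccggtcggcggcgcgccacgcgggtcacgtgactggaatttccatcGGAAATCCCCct
Adjacent matches on the 2 strands overlap, so 1 run of 11 capitals in Cxcl1 and the first run in Nfkb2 each hold 2 matches. The decamer GGGAATTTCC of Cxcl1 began 71 bases before the start, and GGAAATTCCC of Nfkbia 29 bases before it. Nfkb2 and Tnfaip3 have further annotated starts, and for each the start shown is the one with most decamers before it. The Tnfaip3 start not shown had 0 decamers in its window. The members shown thus carried the decamer in both directions of difference.

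In limma's test over all 45037 probe sets, no member had an adjusted p under 0.05. The smallest adjusted p among the members was 0.423, for Nfkb2, and the smallest over all probe sets was 0.278. Counts below therefore describe how the pools lay and are not calls of change. Because the list was chosen with earlier results of these data known, shares set beside all genes are description, not a test. The pools of a gene are called separate where the values of the 2 groups did not overlap. Separate pools with threat lower were found for 12 of the 36 members (33.3%), against a background of 18.8% of all genes. Separate pools with threat higher were found for 5 members (13.9%), against 26.2% of all genes. The median difference over the members was -0.066, and over all genes it was 0.024. The difference lay below 0 for 24 members (66.7%), and for 44.3% of all genes. No member differed by as much as 1.5-fold with separate pools, a size reached with threat lower by 0.715% of all genes and with threat higher by 0.066%. An unadjusted p under 0.05 in limma's test was seen for 4 members with threat lower (Ccl2, Ccl4, Cxcl1 and Nfkb2), against 5.76% of all genes. It was seen for 1 member with threat higher (Tnfaip3), against 4.9% of all genes.

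Threat pool 2 stood apart in 2 of 3 probe sets for 18S ribosomal RNA. The set for its middle part read 9.19 and 10.58 in the threat pools, against 9.30 and 8.97 in the control pools, and the 5′ set read 11.82 and 12.92 in the threat pools, against 12.05 and 11.85 in the control pools. The 3′ set did not set that pool apart, at 10.31 and 10.40 in the threat pools, against 10.02 and 10.10 in the control pools. Without threat pool 2, 21 members had the remaining threat pool below both control pools (background 29.5%) and 7 had it above both (background 42.9%). Without control pool 1, 19 were lower and 9 higher (backgrounds 30.2% and 44.3%). With control pool 2 left out instead, 18 were lower and 9 higher (34.8% and 38.4%). With threat pool 1 left out, 14 were lower and 9 higher (32.5% and 36.7%). With pools paired by number, both differences lay below 0 in 17 members and above 0 in 5, against 27.6% and 37.6% of all genes. The difference exceeded both the gap between the threat pools and the gap between the control pools in 12 members, of which 9 were lower in threat. Over all genes 32.6% met this, and 13.7% did with threat lower.

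**Figure D1:**
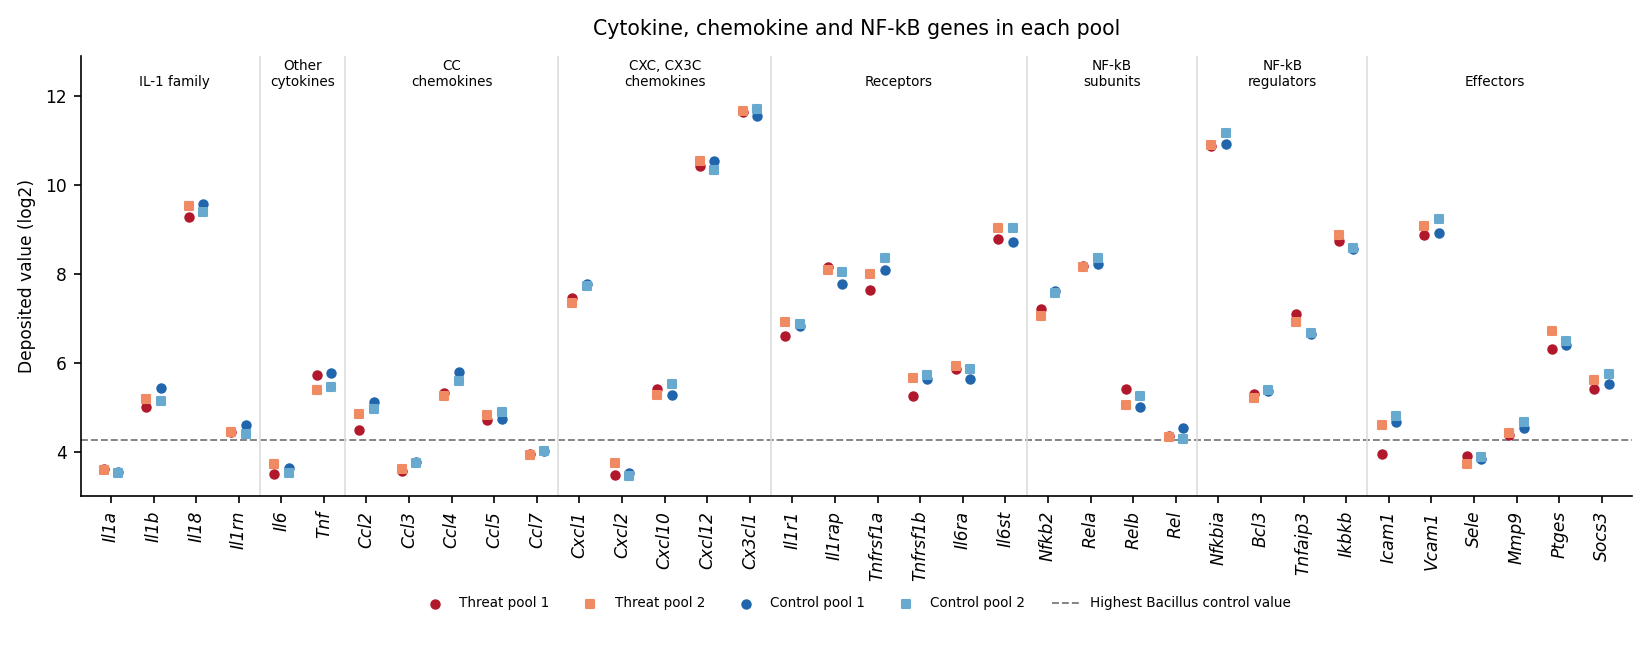
Deposited log2 value (vertical axis) of each measured member by pool, grouped by role, with threat pools left of control pools; each point is 1 array. The dashed line is the highest value of the Bacillus control probe sets, 4.25, at or below which all 4 pools of 6 members lie.

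The array carries 27 probe sets for Bacillus transcripts, which match no mouse gene, and their highest value, 4.25, served as a guide to background. All 4 pools of 6 members lay at or below it: Il1a, Il6, Ccl3, Ccl7, Cxcl2 and Sele, between 3.44 and 4.02. Of all genes 14.6% did so. For these 6 the array gives no usable level, and separate pools at this level (Ccl3 and Ccl7 lower, Il1a higher) say little. Icam1 was at or below the guide in 1 pool. Of the 30 members with at least 1 pool above the guide, 10 lay lower by separate pools and 4 higher, where the shares over all genes that met the same condition were 18.5% and 28.2%. Among the 19 members brighter than the median probe set, 5 lay lower and 4 higher, against 15.5% and 33.1% of all genes that bright.

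The 5 CC chemokines, ligands that draw monocytes and lymphocytes, all had differences below 0, as did 44.3% of all genes. Ccl2 and Ccl4 had separate pools with threat lower above the guide, and Ccl3 and Ccl7 had them below it, where 18.8% of all genes had separate pools with threat lower. Ccl4, made by activated microglia and other macrophages, read 5.32 and 5.24 in the threat pools, against 5.80 and 5.59 in the control pools. The groups did not overlap, and the difference of -0.41 ± 0.11 (SE, 1.33-fold lower) had a limma adjusted p of 0.433. Ccl2, the main attractant of monocytes, read 4.49 and 4.85 in the threat pools, against 5.12 and 4.97 in the control pools. Its difference of -0.38 ± 0.15 (SE) had a limma adjusted p of 0.469. Its unadjusted limma p of 0.0474 came to 0.0533 with arrays centred on their medians and 0.0541 with an intensity trend. The limma p was 0.0597 with cyclic loess and 0.0796 with the pool number as a block. It stayed under 0.05 with probe sets averaged per gene (0.0419) and without probe sets ending in _x_at or _s_at (0.0472). Threat pool 1 held much of the Ccl2 difference, which was -0.19 without that pool. Ccl5, an attractant of T cells, read 4.71 and 4.83 in the threat pools, against 4.74 and 4.89 in the control pools, and its groups overlapped. Ccl3, a close relative of Ccl4, had a difference of -0.17, and Ccl7 one of -0.081, both below the guide.

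The CXC and CX3C chemokines showed no common direction. Cxcl1, an attractant of neutrophils, read 7.45 and 7.34 in the threat pools, against 7.77 and 7.72 in the control pools. Its difference of -0.35 ± 0.095 (SE) had a limma adjusted p of 0.433, but its probe sets did not agree, as described below. Cxcl10, an interferon-induced attractant of T cells, read 5.40 and 5.27 in the threat pools, against 5.26 and 5.53 in the control pools. Cxcl12, a constitutive chemokine that guides neurons and blood cells, read 10.42 and 10.53 in the threat pools, against 10.53 and 10.33 in the control pools. Cx3cl1, the neuronal ligand of the microglial receptor Cx3cr1, read 11.65 in both threat pools, against 11.55 and 11.70 in the control pools. In each of these 3 genes the groups overlapped in the probe set read, with differences of -0.060, 0.046 and 0.021. Another Cxcl12 probe set, 1417574_at, had separate pools with threat lower, at -0.069. Those of Cx3cl1 are described below.

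In the probe sets they were read from, interleukin-1 family genes and the classic proinflammatory cytokines had overlapping pools, apart from Il1a below the guide. Il1b, the secreted interleukin-1 of microglia and macrophages, read 5.01 and 5.18 in the threat pools, against 5.43 and 5.13 in the control pools. Its difference of -0.19 ± 0.14 (SE) was -0.035 without control pool 1, the highest of the 4 pools. Il18, a related cytokine processed by the inflammasome, read 9.28 and 9.53 in the threat pools, against 9.56 and 9.38 in the control pools. Il1rn, the secreted antagonist of the interleukin-1 receptor, read 4.45 and 4.44 in the threat pools, against 4.60 and 4.40 in the control pools. Its probe set 1423017_a_at, under the guide in 1 pool, had separate pools with threat lower, at -0.13. Tnf, tumour necrosis factor, read 5.72 and 5.38 in the threat pools, against 5.77 and 5.46 in the control pools, so that pools of the same number lay closer than pools of the same group. Il6 lay between 3.49 and 3.72 in all pools, below the guide.

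The receptors split between directions in the probe sets they were read from, but Il6ra and Il1rap each had probe sets of both signs. Tnfrsf1a, the widely expressed receptor for tumour necrosis factor, read 7.63 and 8.0001 in the threat pools, against 8.08 and 8.35 in the control pools. The groups were apart by 0.076, and the difference of -0.40 ± 0.16 (SE, 1.32-fold lower) had a limma adjusted p of 0.475. Leaving out threat pool 1 gave -0.21, and leaving out control pool 2 gave -0.26. It was -0.53 without control pool 1 and -0.58 without threat pool 2. Tnfrsf1b, the receptor for tumour necrosis factor on microglia and leukocytes, read 5.25 and 5.65 in the threat pools, against 5.64 and 5.73 in the control pools, and its groups overlapped. Il6ra, the binding chain for interleukin-6, read 5.86 and 5.93 in the threat pools, against 5.63 and 5.85 in the control pools. Its groups were apart by 0.0093, and its difference of 0.16 was 0.045 without control pool 1 and 0.27 without control pool 2. Il6st, the signalling chain shared by the interleukin-6 family, read 8.78 and 9.03 in the threat pools, against 8.72 and 9.04 in the control pools. Il1r1, the signalling receptor for interleukin-1, read 6.60 and 6.91 in the threat pools, against 6.83 and 6.87 in the control pools. The groups of Il6st and Il1r1 overlapped.

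Of the NF-kB subunits, 4 of 5 were measured, and Nfkb2 and Rela had separate pools with threat lower. Nfkb2, which encodes p100, the precursor of p52, read 7.21 and 7.04 in the threat pools, against 7.62 and 7.56 in the control pools. The groups were apart by 0.35, the widest gap among the 36 members. The difference of -0.46 ± 0.10 (SE, 1.38-fold lower) lay between -0.38 and -0.55 when any 1 pool was left out. This probe set ends in _x_at, an Affymetrix suffix for sets whose probes may also match other transcripts. The other Nfkb2 probe set, 1425902_a_at, read 5.16 and 5.48 in the threat pools, against 5.41 in both control pools, a difference of -0.094 ± 0.13 (SE) with overlapping groups. Rela, the main activating subunit, read 8.17 and 8.16 in the threat pools, against 8.22 and 8.35 in the control pools, a difference of -0.12 ± 0.096 (SE). That difference was -0.059 without control pool 2 and -0.19 without control pool 1. Relb, the partner of p52, read 5.41 and 5.04 in the threat pools, against 5.01 and 5.25 in the control pools. Rel, the subunit of lymphoid cells, read 4.36 and 4.33 in the threat pools, against 4.53 and 4.29 in the control pools. The groups of Relb and Rel overlapped.

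In the probe sets they were read from, all 4 regulators of NF-kB had separate pools, 2 in each direction. Of all genes, 18.8% had them with threat lower and 26.2% with threat higher. For Ikbkb the direction depended on the probe set, as described below. Tnfaip3, which encodes the ubiquitin-editing inhibitor A20, read 7.10 and 6.91 in the threat pools, against 6.64 and 6.67 in the control pools. The groups were apart by 0.24, and the difference of 0.35 ± 0.11 (SE, 1.27-fold higher) had a limma adjusted p of 0.436. Without any 1 pool it lay between 0.25 and 0.45. Its other probe set, near the guide, had a difference of 0.067. Ikbkb, the catalytic subunit of IkappaB kinase in the classical pathway, read 8.73 and 8.87 in the threat pools, against 8.56 and 8.57 in the control pools, a difference of 0.24 ± 0.097 (SE). Nfkbia, the inhibitor IkappaB-alpha and a rapid target of NF-kB, read 10.88 and 10.89 in the threat pools, against 10.92 and 11.16 in the control pools. Its difference of -0.16 ± 0.11 (SE) came to -0.033 without control pool 2 and to -0.28 without control pool 1. The Nfkbia probe sets 1420089_at, 1448306_at and 1449731_s_at had overlapping groups, with differences of 0.010, -0.042 and -0.015. Its probe set 1438157_s_at had separate pools with threat lower, at -0.23. Bcl3, a nuclear IkappaB protein that acts with p50 and p52, read 5.30 and 5.19 in the threat pools, against 5.36 and 5.38 in the control pools. Its difference of -0.12 lay between -0.069 and -0.18 when any 1 pool was left out.

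**Figure D2:**
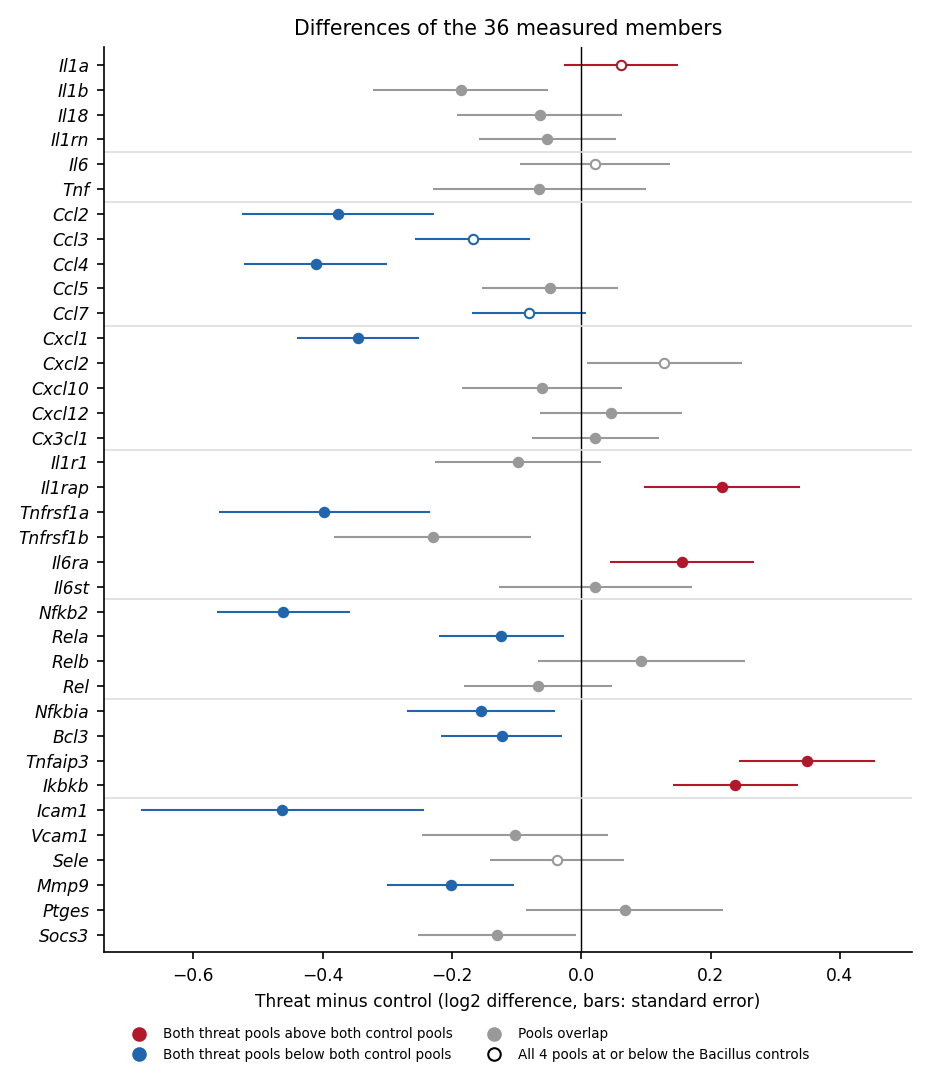
Difference between threat and control (horizontal axis, log2) with its standard error from limma for the 36 measured members, by role from top to bottom. Red points are members with both threat pools higher (5), blue points those with both lower (12), grey points those with overlapping pools (19), and open points lie at or below the Bacillus controls in all pools.

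Adhesion molecules and other induced effectors lay lower or overlapped. Icam1, which leukocytes bind when they cross vessel walls, read 3.95 and 4.60 in the threat pools, against 4.66 and 4.81 in the control pools. Its difference of -0.46 ± 0.22 (SE, limma adjusted p of 0.503) was -0.14 without threat pool 1 and -0.79 without threat pool 2. Mmp9, a matrix-degrading protease, read 4.37 and 4.43 in the threat pools, against 4.53 and 4.67 in the control pools, a difference of -0.20 ± 0.098 (SE) close to the guide. Vcam1, an adhesion molecule of activated endothelium, read 8.87 and 9.07 in the threat pools, against 8.91 and 9.23 in the control pools, with overlap. Its other probe sets had differences of -0.26 and -0.39, and 1 of them had separate pools. Socs3, a feedback inhibitor of interleukin-6 signalling, read 5.41 and 5.60 in the threat pools, against 5.53 and 5.74 in the control pools. Ptges, which makes prostaglandin E2 in inflammation, read 6.31 and 6.71 in the threat pools, against 6.40 and 6.48 in the control pools. Socs3 and Ptges overlapped, with differences of -0.13 and 0.067. The Socs3 set read, 1455899_x_at, also carries the suffix for possible matches to other transcripts. Another Socs3 set, 1416576_at, read 5.54 and 5.44 in the threat pools, against 5.64 and 5.57 in the control pools, with separate pools.

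The 36 members had 72 probe sets with a single symbol, and 60 of these had at least 1 pool above the guide. Among the 60, 22 were lower and 7 higher by separate pools. Of all 45037 probe sets, 19.4% were lower and 23.9% higher, without the limit to a single symbol or to sets above the guide. More than 1 such probe set was present for 16 members. In 8 of them (Il1rn, Tnfrsf1b, Nfkb2, Tnfaip3, Vcam1, Mmp9, Ptges and Socs3) the differences of all such probe sets had the same sign. For Tnfrsf1b and Ptges the groups overlapped in each of these sets. In 4 others, probe sets of 1 gene had separate pools in opposite directions, so that the direction given for the gene depends on the probe set. Neither count was taken over all genes, so how often probe sets share a sign elsewhere is not given.

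Il1rap, the accessory chain of the interleukin-1 receptor, was 1 of these 4. The chosen probe set, 1442614_at, read 8.16 and 8.08 in the threat pools, against 7.77 and 8.04 in the control pools, a difference of 0.22 ± 0.12 (SE). It was 0.085 without control pool 1 and 0.35 without control pool 2. A second one, 1439697_at, read 7.53 and 7.16 in the threat pools, against 6.86 and 7.14 in the control pools, likewise higher. The probe sets 1421844_at and 1421843_at were lower. Of these 1421844_at read 5.95 and 5.83 in the threat pools, against 6.31 and 6.17 in the control pools, a difference of -0.35 ± 0.10 (SE). 1421843_at read 4.87 and 4.93 in the threat pools, against 5.48 and 5.28 in the control pools, a difference of -0.48 ± 0.11 (SE). The last has groups apart by more than the gap within either group. The mean of all 5 Il1rap probe sets gave -0.062. Il1rap is transcribed as membrane-bound and soluble forms, and which form each probe set reads was not analysed here.

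For Ikbkb, 1426207_at was higher as given above, while 1432275_at read 6.72 and 6.80 in the threat pools, against 7.07 and 6.84 in the control pools, a difference of -0.20. The probe set 1426333_a_at also had separate pools with threat lower, at a difference of -0.041. The mean of the Ikbkb probe sets gave 0.053, against 0.24 for the chosen one. For Cxcl1, the chosen 1441855_x_at was lower, and 1457644_s_at read 7.07 and 7.06 in the threat pools, against 6.82 and 7.00 in the control pools, a difference of 0.16. The third Cxcl1 probe set, 1419209_at, lay under the guide in all pools with a difference of -0.37. The suffixes _x_at and _s_at both mark sets whose probes can match more than 1 transcript, so no direction for Cxcl1 stands free of this limit. For Cx3cl1, 1415804_at read 10.62 and 10.85 in the threat pools, against 10.57 and 10.60 in the control pools, a difference of 0.15. Its probe set 1441884_x_at, with the same suffix limit, read 5.15 and 5.13 in the threat pools, against 5.42 and 5.60 in the control pools, a difference of -0.37. The Cx3cl1 set 1421610_at, under the guide in 1 pool, also had separate pools with threat lower, at -0.23.

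**Figure D3:**
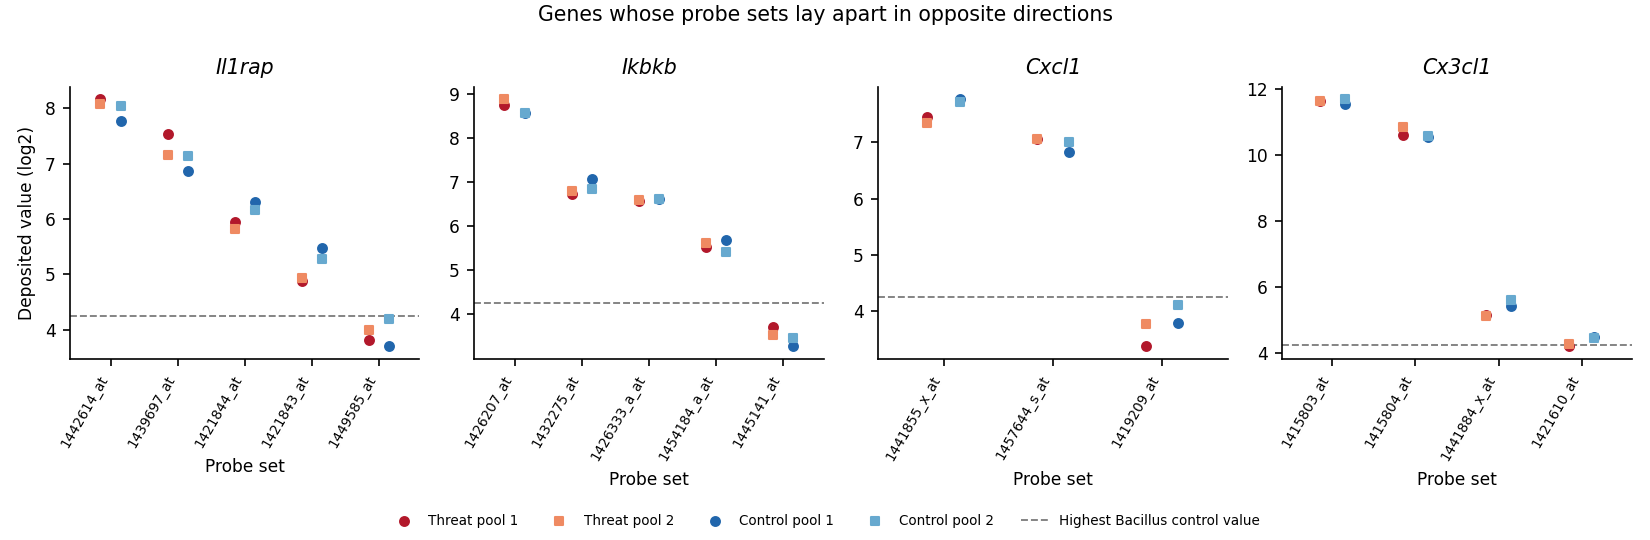
Deposited log2 value (vertical axis) in each pool for every single-symbol probe set of Il1rap, Ikbkb, Cxcl1 and Cx3cl1, threat pools left of control pools, with the highest Bacillus control value dashed. In each gene at least 1 probe set has both threat pools higher and at least 1 has both lower, for example Il1rap at 0.22 and -0.48.

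Other genes of the pathway were read from lists of names, also chosen with earlier results of these data known. Over all genes, 18.8% lay lower and 26.2% higher by separate pools. Of 26 measured genes that carry the signal to NF-kB (adaptors, kinases and further inhibitors), 4 lay lower and 6 higher by separate pools, with a median difference of 0.0050. Tab3, an adaptor of the kinase TAK1, read 8.88 and 8.92 in the threat pools, against 8.39 and 8.54 in the control pools, a difference of 0.44 ± 0.0996 (SE). Nfkbie, the inhibitor IkappaB-epsilon, had a difference of -0.33, Tnip2, a partner of A20, one of 0.30 and Ikbkg, the regulatory subunit of IkappaB kinase, one of 0.26. Of 20 further NF-kB target genes, 8 lay lower and none higher by separate pools, with a median of -0.17. Lcn2, an iron-binding lipocalin induced in inflammation, read 4.22 and 4.40 in the threat pools, near the guide, against 6.78 and 6.15 in the control pools. Its adjusted p was 0.315 in limma's test. Ch25h, which makes the oxysterol 25-hydroxycholesterol, had a difference of -0.58, the haptoglobin gene Hp one of -0.40, with both threat pools under the guide, and the transcription factor gene Cebpd one of -0.35.

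Further ligands numbered 35, with 10 lower and 2 higher by separate pools and a median of -0.076. The shares over all genes were 18.8% lower and 26.2% higher. Ccl12, a rodent attractant of monocytes, read 4.83 and 4.74 in the threat pools, against 5.69 and 5.04 in the control pools. Il33, a nuclear alarmin of the interleukin-1 family made by oligodendrocytes and astrocytes in mouse brain, read 7.54 and 7.76 in the threat pools, against 8.21 and 8.03 in the control pools, a difference of -0.48 ± 0.12 (SE). Tgfb1, a growth factor that restrains inflammation, had a difference of -0.34 and the membrane-bound chemokine Cxcl16 one of -0.32. Further receptors numbered 29, with 7 lower and 2 higher by separate pools and a median of -0.11. They were led in size by Tnfrsf11b, a decoy receptor of the tumour necrosis factor family, at -0.52, with both threat pools under the guide. Csf2rb, the shared beta chain of the receptors for interleukin-3, interleukin-5 and GM-CSF, was at 0.27. Tgfbr1, a receptor for TGF-beta, was at -0.27 and Tnfrsf12a, the receptor for the ligand TWEAK, at -0.22. The adjusted p of each of these genes was above 0.05 in limma's test.

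Markers of the cells that make or answer these factors also lay lower in places. In a bulk sample, fewer cells of a type and less RNA per cell cannot be told apart. The background for the marker counts is all genes, with 18.8% lower and 26.2% higher by separate pools. Beside the chemokines and Il1b stand the microglia markers, of which 6 of 13 had separate pools with threat lower and none higher, with a median of -0.14. Their summed linear signal, relative to the mean of the control pools, was 0.848 and 0.942 in the threat pools, against 1.04 and 0.955 in the control pools. The complement gene C1qa had the largest difference among those of them with separate pools, -0.33. For markers of macrophages at brain borders, none of 7 had separate pools, and the summed signal was 0.679 and 1.10 in the threat pools, against 0.726 and 1.27 in the control pools.

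Beside Icam1, Vcam1 and Tnfrsf1a stand the endothelial markers, of which 5 of 11 had separate pools with threat lower, with a median of -0.28. Their summed signal was 0.706 and 0.932 in the threat pools, against 0.841 and 1.16 in the control pools. In both groups pool 1 was the lower one, as it was for these 3 genes. Pool 1 was likewise the lower one in both groups for the summed border macrophage, mural and meningeal, astrocyte and neuron markers. The mural and meningeal markers had 5 of 11 lower with separate pools and sums of 0.534 and 0.778 in the threat pools, against 0.727 and 1.27 in the control pools. Blood leukocyte markers had 4 of 9 lower, with sums of 0.732 and 0.721 in the threat pools, against 1.17 and 0.834 in the control pools. The astrocyte markers had 5 of 8 lower, with sums of 0.843 and 0.938 in the threat pools, against 0.998 and 1.00 in the control pools. Of all genes 18.8% were lower by separate pools.

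All 7 measured oligodendrocyte markers were lower with separate pools, where 18.8% of all genes were. The sums of these markers were 0.505 and 0.616 in the threat pools, against 1.11 and 0.888 in the control pools. The choroid plexus markers had 2 of 6 lower, and their sums were 0.453 and 0.476 in the threat pools, against 1.47 and 0.527 in the control pools, so that control pool 1 stood apart. Of 8 neuron markers none had all pools at or below the guide, and 3 were lower and 1 higher, where 26.2% of all genes were higher. Their sums were 0.940 and 0.970 in the threat pools, against 0.939 and 1.06 in the control pools. Of the defining markers, those at or below the guide in every pool were Ms4a1 of B cells, and Aqp1 and Kcne2 of choroid plexus. The part of these markers in the values of the members was not tested.

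**Figure D4:**
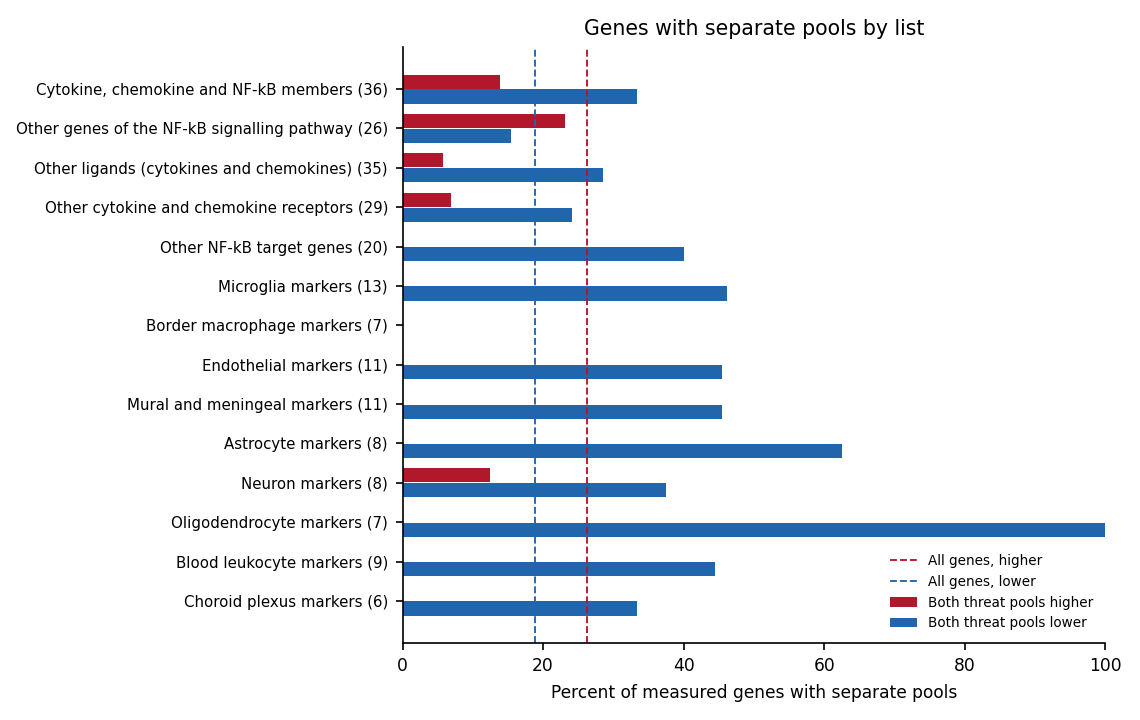
Percent of the measured genes (number in brackets) of each list with both threat pools higher (red bars) or both lower (blue bars) than both control pools; dashed lines give the shares over all genes, 26.2% higher and 18.8% lower. The members stand at 13.9% and 33.3%, and lower bars are longer than higher ones in all lists but the other NF-kB signalling genes and the border macrophages, which have no bar.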

How the data were processed

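The deposited values are log2 expression values per probe set on the scale the authors chose. The submitters' processing notes name RMA, without version or settings. RMA usually corrects background, equalises the arrays' distributions and summarises probes, which would hide a shift shared by most transcripts. RNA was extracted with Qiagen RNEasy, per the labels' protocols.

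Of 45101 probe sets, 64 control sets were left out. Symbols came from the platform annotation, and 34945 sets had 1 symbol. Threat was compared with control by limma 3.58.1 (R 4.3.3; lmFit, eBayes, 2-sided, Benjamini-Hochberg over 45037 probe sets, 2 residual degrees of freedom), checked on simulated data. No exact permutation test was used, since the smallest p it allows with 2 pools a side is 0.333. Precision is limited by the number of arrays.

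The members and lists were chosen with earlier results of these data known. Every member is reported. From each other list, up to 4 genes (3 for markers) with the largest difference among those with separate pools and a mean above 4.25 could be named. Alternatives were the pool number as a block, other scalings, an intensity trend, other probe set choices, filters and thresholds, and leaving out each pool.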

Additional observations from a re-analysis of the deposited data

How the results depend on the processing

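No alternative gave an adjusted p under 0.05 for a member or for any probe set. For the 17 members with separate pools, leaving out a pool, the block and the intensity trend cannot turn the sign. Under the 4 alternatives that can (other scalings and probe set choices), 1 turned: Il1rap, at -0.062 with the mean of its probe sets, of which some were higher and some lower. The pool number shared by the groups is not stated to mark a batch or day. Deviations of same-numbered pools correlated at 0.33 over all probe sets and at 0.13 over the 36 members. With it as a replicate block, 5 members were lower and 1 higher at an unadjusted p under 0.05 in limma's test. Ccl2 was no longer among them (0.0796), while Tnfrsf1a (0.00964) and Icam1 (0.0448) were. By the sign of both same-numbered differences, which asks less than separate pools, 17 were lower and 5 higher. Leaving out 1 pool gave 14 to 21 members lower and 7 to 9 higher by separate pools, 1 to 5 lower and 0 to 1 higher at an unadjusted p under 0.05, and 0 to 1 lower at 1.5-fold, where fewer pools have to be separate. At an unadjusted p under 0.05 in limma's test, 3 members were lower and 2 higher with arrays centred on their medians. With an intensity trend 4 were lower and 2 higher. With probe sets averaged per gene, 14 members were lower and 3 higher by separate pools. At an unadjusted p under 0.05 in limma's test, 5 of these averages were lower and 0 higher. Without probe sets ending in _x_at or _s_at, 2 were lower at that p, as Nfkb2 came to -0.094 and Cxcl1 to a probe set under the guide. Among the 19 members brighter than the median probe set, 5 were lower and 4 higher by separate pools, and 2 lower and 2 higher at that p. At a threshold of 1.2-fold 6 were lower and 1 higher, and at an unadjusted p under 0.01 in limma's test 1 was lower and 0 higher. No share over all genes was taken for counts by fold or unadjusted p under alternatives, or for averaged probe sets. These counts therefore do not set the members apart from other genes. With the median of the Bacillus control values, 3.43, as the guide, 0 members had all pools at or below it.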
